A study of Mus musculus with 12 samples.

Results

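Periosteal stem cells (PSCs) were sorted by flow cytometry from the periosteum, the sheath around long bones, and their RNA was sequenced from mice with and without an intact Prmt5 allele in cells that express Ctsk. The comparison used the 6 PSC samples among the 12 samples of the series, 3 labelled control and 3 labelled cKO, chosen by their labels alone, and it asked which transcripts differed in level and in the share of reads that fall in introns. Control animals were Prmt5 flox/+ with Ctsk-Cre and the CAG-CAT-EGFP reporter, and cKO animals were Prmt5 flox/Δ with the same Cre and reporter, all C57BL/6 and 3 to 6 weeks old, with 3 mice per group by the study's legends. Both groups therefore carry Ctsk-Cre, the reporter and at least 1 floxed allele, and the reporter marks cells in which Cre has acted at some time. Ctsk-Cre is active in osteoclasts as well as in PSCs, so the sorted cells came from animals whose osteoclasts carry the deletion too. Cells were gated as negative for Ter119, CD31, 6C3, CD45 and CD90, positive for CD51, CD200 and EGFP, and negative for CD105.

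PRMT5 places symmetric dimethyl marks on arginines of the Sm proteins, which form the ring of the spliceosomal snRNPs, and it acts in a complex with WDR77 and with adaptors such as pICln (Clns1a). Loss of PRMT5 in other mouse tissues is known to raise intron retention and to alter exon usage in a subset of genes. PSCs are skeletal progenitors that form bone directly, without a cartilage template, and periostin, encoded by Postn, is a secreted matrix protein of the periosteum.

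Controls 1 and 2 and cKO 1 to 3 stand together in a table of 53715 genes, and the values of control 3 come from another. Tests therefore compared 2 control with 3 cKO libraries, the values of control 3 are given beside theirs, and fits over all 6 libraries are reported as an alternative. Mapped reads numbered 9932976 to 13928745 in the 5 libraries and 6958265 in control 3. The correlation of log2(RPKM + 1) was 0.947 to 0.981 among the 5 libraries and 0.880 to 0.897 between them and control 3, and the reads of control 3 also had the largest intron share (11.4%, against 7.86% and 8.56% in controls 1 and 2 and 9.26% to 10.03% in the cKO libraries). The defining markers Postn and Ctsk were detected in every library. Ctsk (cathepsin K) had 156 to 192 RPKM in control and 157 to 181 RPKM in cKO libraries, and no member of the gate genes Itgav, Cd200 and Ctsk passed the test. Of 5 genes for markers that the gate selects against, 4 were tested, and 2 of these were higher (8.46% of all genes). Eng (CD105, log2 fold change 0.58, adjusted p = 0.168) and Thy1 (CD90, -0.15, adjusted p = 0.735) did not pass in limma. Ptprc (CD45) was under the level filter. Pecam1 (CD31) had 0.233 to 0.672 RPKM in control and 3.24 to 6.72 RPKM in cKO libraries (log2 fold change 1.70). Its adjusted p was 0.0107 from limma and 0.031 over all 6 libraries. It was the only endothelial marker of 8 that reached the level filter. Enpep (6C3) had 1.92 to 3.41 RPKM in control and 5.11 to 7.97 RPKM in cKO libraries (log2 fold change 0.99, adjusted p = 0.0251 from limma; 0.0574 over all 6 libraries). The summed RPKM of 6 erythroid genes was 33.1 and 47.3 in controls 1 and 2, 1257 in control 3 and 183 to 862 in the cKO libraries. Of the 5 erythroid genes tested, 4 were higher and none lower in limma (8.46% and 1.67% of all genes). The summed RPKM of 8 neutrophil genes was 393 to 1953 in control and 1219 to 2058 in cKO libraries. Chondrocyte genes were abundant in both groups, with a summed RPKM of 5516 to 6664 over 10 genes in control and 6349 to 10253 in cKO libraries. Of these 10, Matn3 and Col9a1 were higher in cKO (8.46% of all genes), though with control 3 added limma gave adjusted p-values of 0.0574 and 0.117. Col10a1 (log2 fold change -1.73) and Col11a2 (-0.48) had negative values that did not pass, and the rest of the list had positive ones. Of 11 osteoblast and osteocyte genes Dmp1, Phex and Ifitm5 were lower (1.67% of all genes), and with control 3 added none passed in limma, at adjusted p-values of 0.0846, 0.0543 and 0.557. Ibsp (log2 fold change 0.86) and Spp1 (0.30) had positive values that did not pass, and the rest of the tested list had negative ones. In Ifitm5 control 3 (14.3 RPKM) was below every cKO library (20.01 to 22.8 RPKM), against 75.3 and 33.9 RPKM in controls 1 and 2. The part of these cells in the results below was not tested. Xist was at 0.0343, 1.72 and 4.04 RPKM in controls 1 to 3 and at 0.0240, 0 and 1.13 RPKM in cKO 1 to 3. The Y-linked gene Ddx3y was at 16.5, 1.56 and 0 RPKM in controls 1 to 3 and at 22.3, 23.9 and 4.71 RPKM in cKO 1 to 3. Both genes varied within both groups and were not evenly spread over them. Control 2 and cKO 3 held reads of both genes, so a single sex could not be assigned to these libraries. Whether each library holds the cells of a single mouse was not tested. The part of sex in the results was not tested.

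Prmt5 itself, on chromosome 14 of GRCm38 from 54507187 to 54517525, showed no lower level in cKO-labelled libraries. Its level was 6.29, 8.31 and 4.32 RPKM in controls 1 to 3 and 8.40, 6.31 and 8.08 RPKM in cKO 1 to 3, with the groups overlapping (log2 fold change 0.05, SE 0.166, adjusted p = 0.868 from limma over controls 1 and 2; exact two-sided permutation p = 0.4 over all 6 libraries). The sign was negative after scaling by median-ratio size factors (-0.09). These are reads of the whole gene, and reads of the deleted part alone are not given, so the value cannot check the labels. Why the level was not lower was not tested. The study itself reports less Prmt5 mRNA and less PRMT5 protein in PSCs of cKO than of control mice. Those measurements also took in growth plate chondrocytes and are not the values of these libraries. Groups below are named by their labels, and each direction is that of libraries labelled cKO relative to libraries labelled control.

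Most genes that differed in level were higher in cKO. Of 11045 genes with a mean of at least 1 RPKM, 1118 passed (10.1%), of which 934 were higher (8.46%) and 184 lower (1.67%) in cKO (limma on log2(RPKM + 1), Benjamini-Hochberg adjusted p under 0.05). The median log2 fold change of all genes was 0.14, and with median-ratio size factors, which set it to -0.0023, 709 passed (6.42%), of which 418 were higher (3.78%) and 291 lower (2.63%), so the excess of rises depends on the scaling. Among genes with a control 3 value, all 3 controls lay on one side of all 3 cKO libraries in 673 of 891 rises and 134 of 179 falls. Separation of all 3 cKO from all 3 control libraries was seen in 20.7% (above) and 6.55% (below) of all 10774 genes with 6 values. Genes were called on controls 1 and 2 and the cKO libraries, which favours separation, so these figures are not a like comparison. Over all 6 libraries 207 genes passed (1.89%), 169 higher (1.54%) and 38 lower (0.347%).

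**Figure D1:**
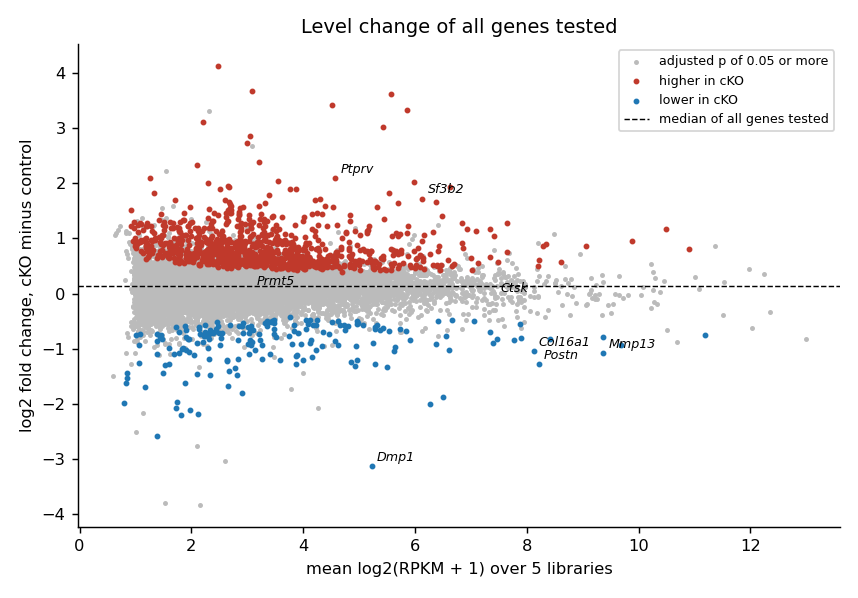
Each point is 1 of 11045 genes, with the mean log2(RPKM + 1) over 5 libraries on the horizontal axis and the log2 fold change (cKO minus control) on the vertical axis; red and blue mark the 934 genes higher and the 184 lower in cKO, and the dashed line is the median of all genes at 0.14. Postn and Col16a1 lie among the most abundant genes that fell, while Prmt5 and Ctsk lie near the median line.

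The 12 largest rises among abundant transcripts with all 3 cKO libraries above all 3 controls were led by Ptprv and Adamts10. Larger rises in the erythroid genes Hba-a2 (log2 fold change 3.63), Hbb-bt (3.43), Hbb-bs (3.33) and Hba-a1 (3.02) passed in limma on the 5 libraries. They were left out because control 3 (148 to 479 RPKM) was not below all cKO libraries (27.5 to 299 RPKM). Over all 6 libraries their adjusted p-values were 0.390 to 0.630 in limma. Ptprv, a receptor-type tyrosine phosphatase known from osteoblasts, had 7.71, 10.3 and 15.1 RPKM in controls 1 to 3 and 46.2, 43.3 and 35.5 RPKM in cKO 1 to 3 (log2 fold change 2.10, SE 0.161, adjusted p = 0.00111 from limma). Adamts10, a secreted metalloprotease that binds fibrillin microfibrils, had 24.6, 27.7 and 27.3 RPKM in control and 116, 113 and 101 RPKM in cKO libraries (log2 fold change 2.03, SE 0.116, adjusted p = 0.000526 from limma). Both genes were separated by more than the spread within either group.

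Vps16, a core subunit of the HOPS and CORVET tethers of vesicle traffic, had 8.07, 8.16 and 7.13 RPKM in control and 31.7, 27.7 and 26.7 RPKM in cKO libraries (log2 fold change 1.70). Arfgap1, which switches off the ARF1 GTPase of the Golgi coat, had 23.2 to 27.0 RPKM in control and 77.7 to 83.1 RPKM in cKO libraries. Txlna, a syntaxin-binding protein, went from 18.7 to 25.7 RPKM to 58.1 to 62.6 RPKM, and Gramd1a, a sterol carrier at contact sites of the endoplasmic reticulum (ER) and the plasma membrane, from 19.3 to 25.6 RPKM to 68.2 to 86.1 RPKM. The rises also held Prkcd, which encodes protein kinase C delta (8.45 to 11.3 against 27.3 to 33.2 RPKM), and Eps8l2, an actin regulator (7.52 to 11.7 against 23.5 to 32.9 RPKM). Ivns1abp, a kelch protein, and Serpina3n, a serine protease inhibitor, completed the 12 together with the splicing factors Sf3b2 and Luc7l. All 12 kept an adjusted p under 0.05 when any of the 5 libraries was left out, with size factors and over all 6 libraries. Annotated genes overlap 7 of them (Ptprv, Gramd1a, Sf3b2, Vps16, Ivns1abp, Luc7l and Eps8l2), and none of the sources used here says whether strand was used in counting.

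Among the 12 largest falls, chosen with all 3 cKO libraries below all 3 controls, was Postn. The gene lies on chromosome 3 from 54361109 to 54391037 and had 488, 521 and 737 RPKM in controls 1 to 3 and 188, 240 and 196 RPKM in cKO 1 to 3. That is 505 ± 23.3 (SD, n = 2) in controls 1 and 2 against 208 ± 27.9 RPKM (SD, n = 3) in cKO. The log2 fold change was -1.28, with SE 0.143 and an adjusted p of 0.00333 in limma, and over all 6 libraries the exact two-sided permutation p was 0.1, the smallest that 3 against 3 can give. Col16a1, a fibril-associated collagen, had 422, 438 and 379 RPKM in control and 204, 206 and 211 RPKM in cKO libraries (log2 fold change -1.05, adjusted p = 0.00261 from limma). The cKO libraries differed by only a few RPKM among themselves in this gene.

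Of the 2 metalloproteinases, Mmp13 (collagenase 3) had 808, 1329 and 2383 RPKM in control and 600, 445 and 436 RPKM in cKO libraries, and the controls differed more among themselves than the group means did. Mmp23 had 29.98, 25.9 and 41.1 RPKM against 12.1, 11.9 and 11.9 RPKM (log2 fold change -1.15, adjusted p = 0.0022 from limma). The osteocyte gene Dmp1, which encodes an acidic phosphoprotein of mineralizing matrix, had 262, 71.1 and 70.3 RPKM in control and 8.18, 32.5 and 11.5 RPKM in cKO libraries (log2 fold change -3.14, SE 0.638, adjusted p = 0.0253 from limma). Its value in control 1 was well over those of controls 2 and 3, as was that of the osteocyte gene Phex, with 13.2, 4.435 and 5.60 RPKM against 0.502, 1.68 and 0.697 RPKM. Ostn (osteocrin, a secreted peptide of bone) had 107, 56.5 and 207 RPKM in control and 26.04 to 37.5 RPKM in cKO libraries. Gja1, the gap junction protein connexin 43, had 118 to 349 RPKM in control and 66.0 to 80.7 RPKM in cKO libraries.

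Hspa1a and Hspa1b, near-identical genes of the inducible heat shock protein 70 whose reads cannot be told apart with certainty, had 155 to 301 and 144 to 275 RPKM in control and 35.8 to 75.4 and 30.5 to 61.1 RPKM in cKO libraries. Annotated genes overlap Hspa1a, Ostn, C1s1 and Slc20a2. C1s1, a complement protease (44.6 to 142 against 14.5 to 25.5 RPKM), Slc20a2, a sodium-phosphate cotransporter (22.1 to 28.4 against 11.5 to 16.0 RPKM), and Tmem147, an ER membrane protein (51.6 to 71.3 against 23.6 to 30.7 RPKM), completed the 12 falls. Postn, Tmem147, Mmp23, Col16a1 and Slc20a2 kept the call in all 5 fits with a library left out. The other 7 lost it in at least 1, and without control 1 only 7 of the 12 passed. Over all 6 libraries Dmp1 (adjusted p = 0.0846), Ostn (0.094), C1s1 (0.0921), Mmp13 (0.116) and Gja1 (0.11), all from limma, no longer passed. Bulk RNA cannot separate fewer cells of a type in a library from less RNA per cell.

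**Figure D2:**
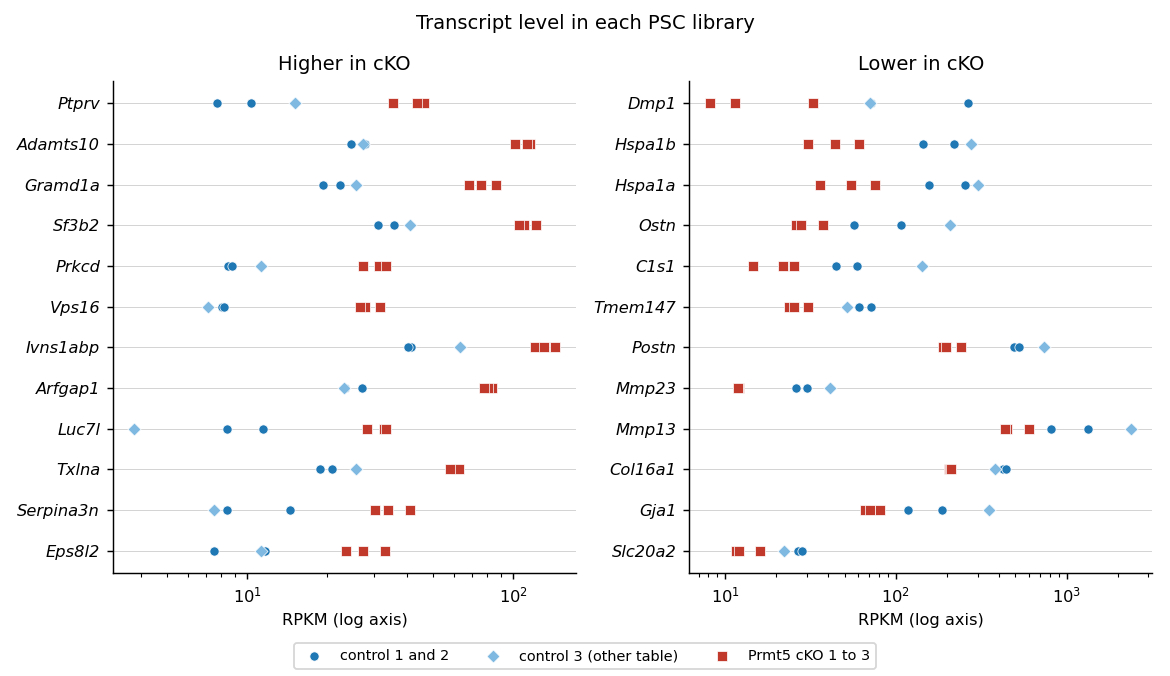
Points give the RPKM (log axis) of the 12 largest rises and 12 largest falls among abundant genes in each of 6 libraries, dark blue circles for controls 1 and 2, light blue diamonds for control 3 of the separate table and red squares for cKO 1 to 3. The groups do not overlap in any of these genes, since the choice required it.

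Genes of the splicing machinery were described through 8 lists, of which 103 members were tested. Of these, 21 were higher (20.4%, against 8.46% of all genes) and 1 was lower, with a median log2 fold change of 0.26 against 0.14 over all genes. With size factors 12 were higher, and over all 6 libraries 8. None of 5 genes of the PRMT5 complex passed, with 20.6 to 20.95 RPKM of Clns1a in control and 25.2 to 26.7 RPKM in cKO libraries (adjusted p = 0.108 from limma), and none of 7 other arginine methyltransferases did.

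Of 15 genes for Sm proteins and the SMN complex, which loads the Sm ring onto snRNA, Gemin2 alone was higher, with 2.29, 1.84 and 0.476 RPKM in control and 4.96, 6.38 and 4.49 RPKM in cKO libraries. Snrpb, the Sm protein B, was at 45.6 to 51.1 RPKM against 55.3 to 66.2 RPKM (adjusted p = 0.122 from limma). Proteins of the U1 and U2 snRNPs, which bind the 5′ splice site and the branch point, held 8 of 25 members higher: Luc7l, Luc7l2, Prpf39, Sf3b1, Sf3b2, Sf3b3, U2af1 and Rbm17. Prpf39, a U1 snRNP factor, had 7.92, 9.81 and 16.2 RPKM in control and 26.8, 24.4 and 25.96 RPKM in cKO libraries (log2 fold change 1.44, adjusted p = 0.00142 from limma).

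In the U4/U6.U5 tri-snRNP, Prpf3, Prpf4, Prpf8 and Snrnp200 of 21 members were higher. Prpf3 had 2.81, 3.34 and 3.50 RPKM in control and 8.70, 11.1 and 8.51 RPKM in cKO libraries. For Prpf8, control 3 (14.99 RPKM) stood above all cKO libraries (11.0 to 12.2 RPKM), so the call rests on controls 1 and 2. The SR proteins, which bind exonic enhancers, held 6 of 12 members higher (Srsf3, Srsf4, Srsf5, Srsf7, Srsf11 and Tra2a), but only 2 with size factors. Srsf7 had 36.9, 34.6 and 49.2 RPKM in control and 72.6, 81.2 and 78.1 RPKM in cKO libraries (log2 fold change 1.09, adjusted p = 0.00221 from limma), whereas Srsf5 had 116 RPKM in control 3 and 93.2 to 99.4 RPKM in cKO libraries.

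Among the kinases that phosphorylate SR proteins, Clk2 (4.78 to 7.31 RPKM in control, 16.2 to 18.2 RPKM in cKO) and Srpk1 (1.73 to 2.65 against 4.74 to 5.44 RPKM) were higher. Dyrk1b, a related kinase, was the single member lower (2.56 to 2.74 against 0.934 to 1.52 RPKM, log2 fold change -0.75, adjusted p = 0.0372 from limma). None of 9 genes of the minor spliceosome, which removes U12-type introns, passed. Over all 6 libraries the 8 splicing machinery genes that passed were Sf3b2, Luc7l, Prpf3, Snrnp200, Srsf7, Srsf11, Clk2 and Srpk1, while Prpf39 (adjusted p = 0.0636 from limma), Gemin2 (0.0872) and Dyrk1b (0.103) did not.

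Outside the spliceosome, where 8.46% of all genes again gives the share called higher, 5 of 18 genes for the nuclear exosome and nuclear RNA retention were higher (Exosc8, Dis3, Rbm7, Zcchc8 and Tpr), 2 with size factors and none over all 6 libraries. Tpr, of the nuclear pore basket, had 4.23 to 6.70 RPKM in control and 8.49 to 8.81 RPKM in cKO libraries. Of 14 genes for nonsense-mediated decay, the pathway that degrades transcripts with early stop codons, Magoh alone was higher, and of 12 RNA polymerase II subunits Polr2b alone. Of 14 nuclear long noncoding RNAs, Snhg3 and Snhg8 were higher, both hosts of snoRNAs in their introns. Snhg3 had 2.85, 5.55 and 7.72 RPKM in control and 19.7, 18.2 and 21.6 RPKM in cKO libraries (log2 fold change 2.05, adjusted p = 0.0026 from limma), and Snhg8 overlapped between the groups through control 3.

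Counts in the secretory pathway lists are likewise read against 8.46% of all genes higher. None of 25 genes for ER chaperones and the unfolded protein response passed, with Hspa5 (BiP) at 184 to 213 RPKM in control and 217 to 300.1 RPKM in cKO libraries. Of 23 genes for the translocon and signal peptidase, Sec62, Spcs1 and Sec11c were higher (median 0.07, below that of all genes), and 1 passed with size factors. Sec24c alone of 17 genes for the COPII coat and procollagen export was higher. Vesicle tethers and vacuolar sorting proteins held 5 of 18 higher, Vps16, Vps33b, Vps51, Vps52 and Vps53. Vps33b, which pairs with Vipas39 in collagen-modifying enzyme traffic, had 4.36, 4.03 and 4.14 RPKM in control and 9.39, 8.70 and 8.70 RPKM in cKO libraries (log2 fold change 0.93, adjusted p = 0.00545 from limma). Vps16 and Vps33b passed over all 6 libraries.

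Of the housekeeping pathways, glycolysis held 5 of 18 members higher (Slc2a1, Pfkl, Pfkm, Tpi1 and Eno2; all genes 8.46%), 2 with size factors (all genes 3.78%) and Slc2a1 alone over all 6 libraries. Slc2a1, the glucose transporter GLUT1, had 9.58, 8.20 and 8.16 RPKM in control and 16.2, 17.3 and 17.8 RPKM in cKO libraries. Psmd6 was the only one of 31 proteasome subunits to pass, Sars and Vars the only 2 of 20 cytosolic aminoacyl-tRNA synthetases, and none of 20 genes of cholesterol synthesis did.

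Calls in the adhesion and signalling lists are read against 8.46% (higher) and 1.67% (lower) of all genes. Integrin chains Itga6, Itga7 and Itga8 were higher and Itga11, a collagen receptor of mesenchymal cells, was lower, with 61.2 to 98.3 RPKM in control and 38.2 to 50.7 RPKM in cKO libraries (log2 fold change -0.64, adjusted p = 0.042 from limma). None of the 3 rises held with size factors. Fgfrl1, an FGF receptor without a kinase domain, had 26.5 to 49.3 RPKM in control and 81.7 to 107 RPKM in cKO libraries, and Etv5, a transcription factor downstream of FGF, was higher as well among 18 genes for FGF and ERK feedback. In the list of PDGF, semaphorin and ephrin signals 2 of 24 were lower, Nrp2 (19.2 to 25.6 against 11.7 to 13.6 RPKM) and Plxna2 (3.56 to 5.17 against 1.55 to 1.99 RPKM), a semaphorin co-receptor and receptor. None of 17 contractile genes and none of 10 Notch pathway genes passed, with medians of -0.16 and -0.06, and with size factors 2 and 1 were lower. Nr1d2 alone of 15 clock genes was higher. Of 19 genes of the response to cell dissociation, Ier3 was higher and Hspa1a and Hspa1b lower. Ihh, a hedgehog ligand, had 0.317, 0.608 and 9.10 RPKM in controls 1 to 3 and 0.919, 1.75 and 1.86 RPKM in cKO 1 to 3 (adjusted p = 0.0814 from limma), and over all 6 libraries the sign turned (-0.17). Outside the splicing lists, the list members that passed for level over all 6 libraries were Snhg3, Vps16, Vps33b, Psmd6, Slc2a1, Hspa1a and Hspa1b, while Fgfrl1 (adjusted p = 0.0634 from limma), Nrp2 (0.0598), Plxna2 (0.0773), Itga11 (0.103), Nr1d2 (0.0864) and the others called in these lists did not.

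**Figure D3:**
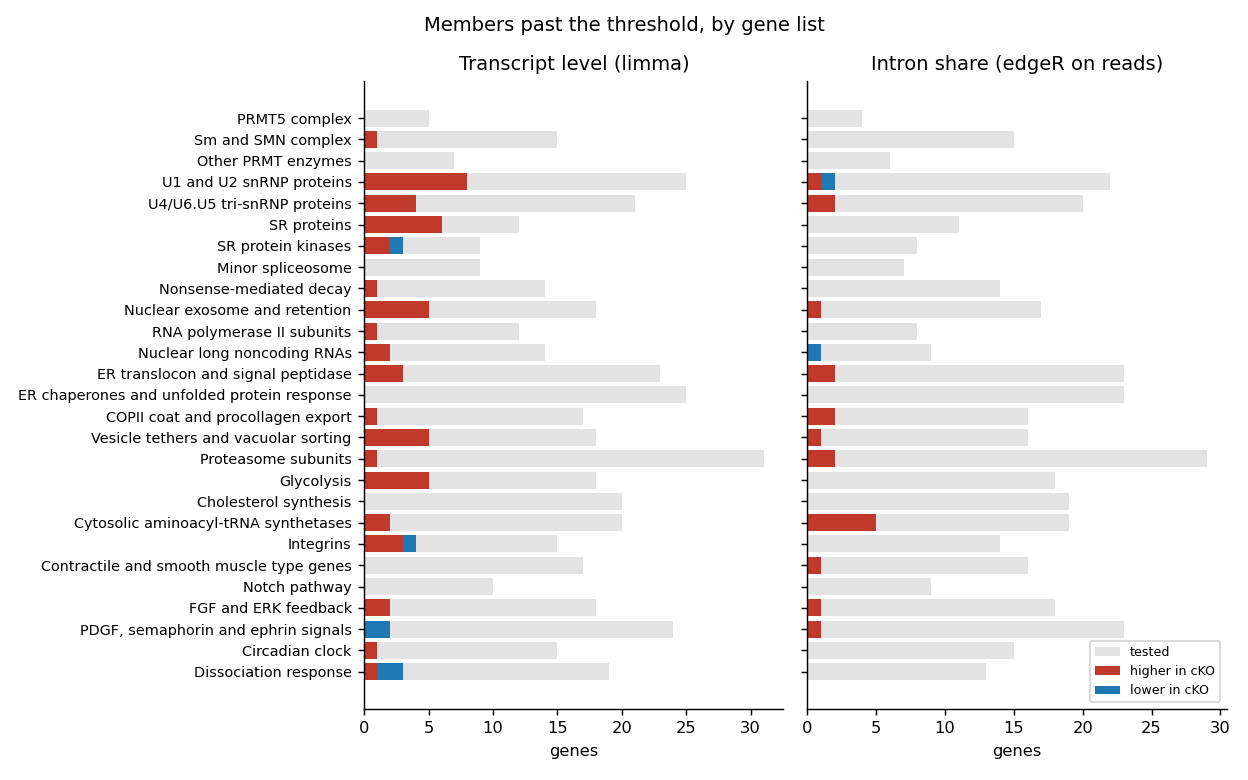
Bars count genes in each of 27 lists, grey for the members tested, red for those higher and blue for those lower in cKO, on the left for transcript level (limma) and on the right for intron share (edgeR on recovered reads). The U1 and U2 snRNP list (8 of 25) and the SR proteins (6 of 12) hold the most level rises, and the aminoacyl-tRNA synthetases (5 of 19) the most intron share rises.

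The second readout was the intron share, the percentage of a gene's reads that lie in its introns. By the log odds of the share, 9 of 10697 genes passed in limma (0.0841%), 7 higher (0.0654%) and 2 lower (0.0187%), although 1746 had an unadjusted p under 0.05. This test gives a share from few reads the same weight as one from many. RPKM values moved in steps of 1 read, and whole exon and intron reads could be recovered for 10235 of the 11045 genes (92.7%, tolerance 0.02 reads). An edgeR test of these reads for an interaction between group and read class called 449 of 9599 genes (4.68%), 412 with a higher share (4.29%) and 37 with a lower share (0.385%). Genes named from this test were chosen after their values were seen. Scaling exon and intron reads separately by TMM called 4.92%, with 348 higher (3.63%), 342 of them among the 412, and 124 lower (1.29%), so the ratio of rises to falls depends on that choice.

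The 412 genes were chosen on controls 1 and 2 and the cKO libraries, so their shares in those libraries are a description, and control 3 alone was not used. The median share of the 412 genes was 4.30%, 4.81% and 7.10% in controls 1 to 3 and 14.1%, 14.2% and 13.2% in cKO 1 to 3, against 10.2%, 10.6% and 11.4% and 12.6%, 11.8% and 11.5% over all genes tested. All cKO libraries lay above all controls, control 3 included, in 321 of the 412 (15% of all 9487 genes with 6 values). The call itself favours genes with the cKO libraries above controls 1 and 2, so these figures are not a like comparison. Control 3 sat between controls 1 and 2 and the cKO libraries in many genes, and with it in the fit 25 of 9634 genes passed (0.259%), all of them higher and all among the 412. Without control 1 the count was 152, without control 2 it was 155, and without cKO 1, 2 or 3 it was 322, 207 or 245. Over the 4252 genes that no other annotated gene overlaps, 175 passed (4.12%), 165 higher (3.88%) and 10 lower (0.235%).

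Comp, cartilage oligomeric matrix protein, on chromosome 8 from 70373558 to 70382066, had the smallest adjusted p. Its intron share was 0.987%, 1.02% and 0.773% in controls 1 to 3 and 7.94%, 7.62% and 7.48% in cKO 1 to 3. The number of intron reads was 698, 697 and 518 in control and 6997, 6120 and 6094 in cKO libraries, and the share of control 1 had a 95% Wilson interval of 0.917% to 1.06%, which covers counting error only, as do all such intervals here. The change in intron relative to exon reads was 3.04 on the log2 scale (adjusted p = 7.16e-07 from edgeR; 0.00392 over all 6 libraries). The level of Comp did not pass, with 2074, 2123 and 3222 RPKM in control and 1964, 2518 and 2184 RPKM in cKO libraries (log2 fold change 0.07, adjusted p = 0.812 from limma).

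Mxra8, a matrix remodelling protein of the cell surface, had 0.513%, 0.448% and 0.607% intron reads in control and 4.32%, 4.06% and 3.73% in cKO libraries (adjusted p = 3.19e-06 from edgeR), and the antisense gene Mxra8os overlaps it. Tmem147, whose level fell, had 2.18%, 1.61% and 5.90% in control and 23.8%, 20.9% and 26.1% in cKO libraries. It passed in both tests of the share (adjusted p = 0.0489 from limma and 8.74e-06 from edgeR), and its introns sum to 728 bp. Cops5, the metalloprotease subunit of the COP9 signalosome, is overlapped by the gene Cspp1. Cops5 had 6.82%, 9.86% and 6.52% in control and 46.9%, 45.9% and 45.8% in cKO libraries, and also passed in both (adjusted p = 0.0489 from limma and 4.02e-05 from edgeR). In each of these genes the cKO libraries lay close together and far from all controls.

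Comp, Mxra8, Tmem147, Atp6v1g1, Postn and the 5 genes that follow were the 10 with separated groups and the smallest adjusted p. Rcn1, a calcium-binding protein of the ER, had 0.980%, 1.11% and 2.81% intron reads in control and 7.53% to 8.24% in cKO libraries. Fkbp10, a prolyl isomerase for procollagen in the ER, had 0.911% to 2.98% against 4.08% to 5.03%. Qsox1, a secreted sulfhydryl oxidase, had 2.91% to 8.64% against 18.2% to 20.8%, and Lamb2, the laminin beta-2 chain, 0.859% to 3.28% against 4.99% to 5.76%. Gpr108, a Golgi membrane protein, had 3.49%, 5.64% and 12.9% in control and 27.8% to 32.0% in cKO libraries. All of these passed in all 5 fits with a library left out, but over all 6 libraries Qsox1 (0.0602), Gpr108 (0.0602), Lamb2 (0.145) and Fkbp10 (0.15) did not (adjusted p from edgeR). Annotated genes overlap Qsox1 (Gm37539) and Fkbp10 (Nt5c3b).

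Atp6v1g1, a subunit of the vacuolar proton pump, on chromosome 4 from 63544772 to 63550750, has only 2 annotated introns and no overlapping gene. The share was 2.48%, 3.11% and 5.76% in controls 1 to 3 and 27.9%, 25.8% and 19.2% in cKO 1 to 3, from 20, 26 and 27 against 304, 183 and 177 intron reads (adjusted p = 1.55e-05 from edgeR; 0.0284 over all 6 libraries). The 2 exon junctions that correct splicing of this transcript makes are shown to mark where the introns lie, from the GENCODE transcript on GRCm38, plus strand, with the last 15 bases of the upstream exon in lower case and the first 15 of the next exon in capitals. Intron 1 spans chr4:63545000-63548584 (3585 bp) and intron 2 spans chr4:63548686-63549944 (1259 bp). The deposited share does not say which of the 2 holds the reads.
Atp6v1g1 junction across intron 1: ccgaggcccgcaagcGAAAGAACCGGAGGC
Atp6v1g1 junction across intron 2: gccaaggaagctgcgGCATTGGGCTCCCAT

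Postn had an intron share of 0.347%, 0.472% and 0.983% in controls 1 to 3 and 2.12%, 2.06% and 1.99% in cKO 1 to 3. These rest on 168, 232 and 443 intron reads among 45056 to 49148 reads of the gene in control, and on 493, 436 and 401 among 20193 to 23265 in cKO libraries. All cKO libraries lay above all controls. The share passed in edgeR (log2 change 2.36, adjusted p = 1.55e-05), though not in limma (adjusted p = 0.134) or in edgeR over all 6 libraries (adjusted p = 0.0811), and the exact two-sided permutation p over 6 libraries was 0.1, the smallest possible. Intron RPM, the intron reads of a gene scaled to the mapped reads of its library, rose against controls 1 and 2, from 14.8 and 21.5 to 34.5 to 43.9 (log2 fold change 1.06, adjusted p = 0.000597 from limma), but control 3 had 63.7, above every cKO library. The share in Prmt5 was 6.29%, 2.20% and 2.46% in control and 2.94%, 3.50% and 1.33% in cKO libraries, with the groups overlapping (exact two-sided permutation p = 0.7).

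**Figure D4:**
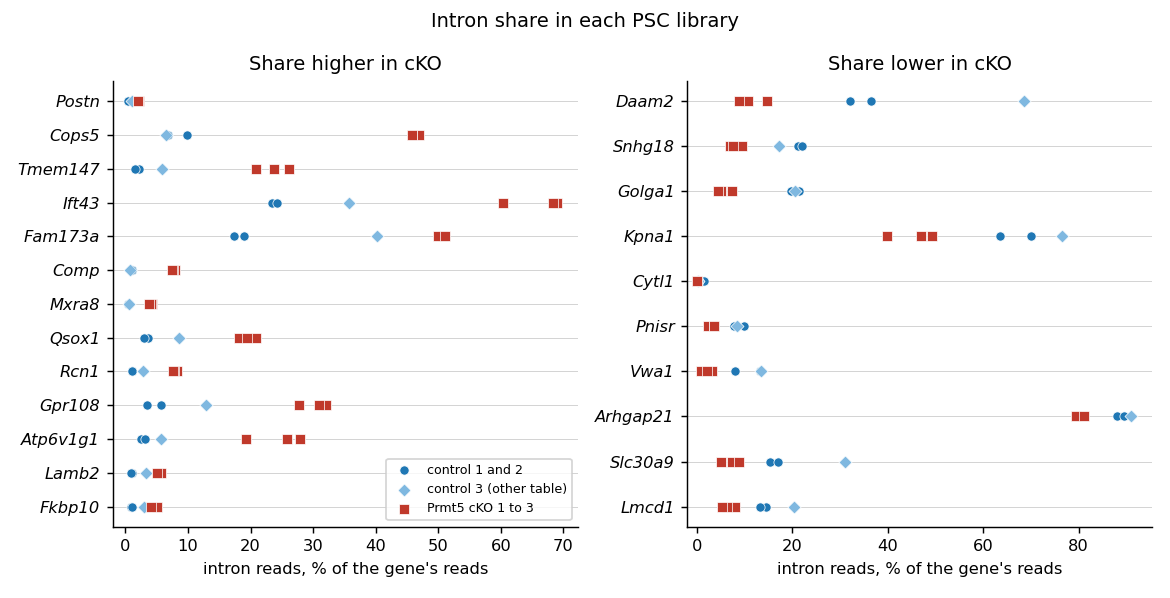
Points give intron reads as a percentage of the reads of each gene in 6 libraries, for 13 genes with a higher and 10 with a lower share in cKO, with dark blue circles for controls 1 and 2, light blue diamonds for control 3 and red squares for cKO 1 to 3. Cops5, Tmem147 and Comp show tight groups far apart, while control 3 lies toward the cKO libraries in Fam173a, Gpr108 and Ift43.

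The 25 genes that passed with control 3 in the fit were varied in function. Besides Comp, Mxra8, Cops5, Atp6v1g1, Tmem147 and Rcn1 they held further secreted or ER and Golgi proteins: C1s1 (0.314%, 0.698% and 0.418% in control, 4.14% to 6.82% in cKO), Prdx4, a peroxidase of the ER (0.553% to 2.56% against 13.8% to 20.2%), Rer1, a retrieval receptor of the Golgi (3.11% to 7.31% against 21.7% to 26.8%), and Serpinf1, which encodes PEDF (0.394% to 0.63% against 1.64% to 1.78%). Ctsa, a lysosomal carboxypeptidase, and Cpxm1, a secreted carboxypeptidase-like protein, were also among them. Cytosolic and nuclear members were Pfn1 (profilin, 4.49% to 6.02% against 16.7% to 19.9%), Stub1, a ubiquitin ligase, Smarce1, a subunit of the BAF chromatin complex, Elp2, of the elongator complex, Ppp1r11, Maged2, Gmppa, Bnip2, S100a16 and R3hdm4. Mrpl39, of the mitochondrial ribosome, had 2.56% to 4.67% in control and 26.02% to 30.9% in cKO libraries. P2rx4, an ATP-gated channel, and 1110004F10Rik completed the 25.

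Raised shares had common features. Of the 412 genes, 402 could be tested for intron RPM, and this intron signal was higher in 365 and lower in none, with a median log2 fold change of 1.54 against 0.29 over the 7898 genes with both tests (over all 8968 genes tested for signal, 15.6% passed, 14.4% higher and 1.16% lower). Share and signal use the same intron reads, so this describes the rise and does not test it again. In level 62 of them were higher (15.05%) and 30 lower (7.28%), against 8.36% and 1.61% of all genes with a share test, 320 were not called, and the median log2 fold change was 0.10. They had a median of 10098.5 intronic bp (quartiles 4806 and 20231.5), against 20372 bp (7719 and 51404) for all genes tested, 14 introns against 12, and 713 exon reads summed over the 5 libraries against 318. Genes with more reads are called more easily, so these figures are a description only.

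Of the 12 largest falls in level, 5 also had a higher intron share (4.29% of all genes tested for the share): Postn, Tmem147, Col16a1, Mmp23 and C1s1. Not all of the 12 were tested, since whole reads were not recovered for Mmp13 and Gja1, so the 12 and that percentage are not alike. Exon reads enter both the level and the share, and a fall of exon reads alone raises the share. The 2 readouts are therefore not independent here. Col16a1 had 2.39%, 3.09% and 2.73% intron reads in control and 7.45%, 7.51% and 7.40% in cKO libraries (adjusted p = 0.000557 from edgeR). Mmp23 had 3.85% to 6.43% against 15.9% to 16.7%. In both the intron signal did not pass in limma (adjusted p = 0.053 for Col16a1 and 0.076 for Mmp23), whereas it was higher in C1s1 (adjusted p = 0.00673 from limma). Of the 5, only Tmem147 and C1s1 were among the genes whose share passed over all 6 libraries.

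**Figure D5:**
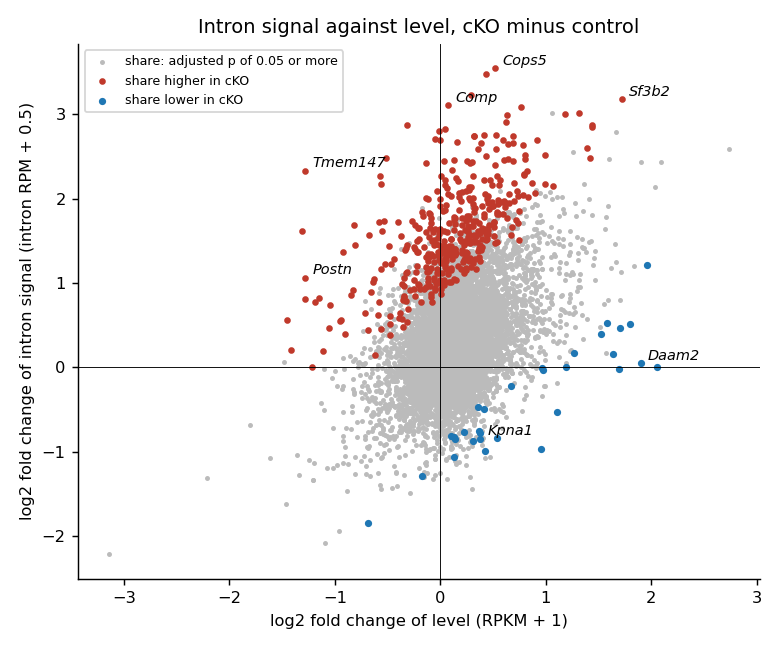
Each point is a gene with both tests, with the log2 fold change of the level on the horizontal axis and that of the intron RPM on the vertical axis (both cKO minus control); red marks genes with a higher and blue genes with a lower intron share by edgeR. Red points extend up to 3.54 (Cops5) on the signal axis around a median level change of 0.10, Tmem147 and Postn lie at a level change of -1.28, and blue points lie mainly to the right.

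The 37 genes with a lower share went the other way. Their median share was 15.2%, 17.4% and 16.8% in controls 1 to 3 and 5.42%, 5.07% and 5.74% in cKO 1 to 3. In 26 of 37 all cKO libraries lay below all controls (6.35% of all genes), which the choice of these genes again favours. The level was higher in 18 and lower in none (median 0.47), against 8.36% and 1.61% of all genes with a share test (median 0.14). More exon reads alone lower a share, so level and share are not independent here. Of 31 with an intron signal test 1 was higher and 7 lower (median -0.49, against 0.29 over the genes with both tests). Over all genes tested for signal, 14.4% were higher and 1.16% lower. Daam2, a formin of Wnt signalling, had 32.0%, 36.4% and 68.6% in control and 14.7%, 10.6% and 8.85% in cKO libraries (adjusted p = 0.000357 from edgeR), while its level rose by 1.90 on the log2 scale and its intron signal stayed near 0 change (0.05, adjusted p = 0.922 from limma). Golga1, a golgin of the trans-Golgi, had 19.7% to 21.4% against 4.45% to 7.29%, also with a higher level (1.69). In Kpna1, an importin alpha, the share went from 63.6%, 70.0% and 76.4% to 49.3%, 47.0% and 39.9% and the intron signal was lower (-0.84, adjusted p = 0.00198 from limma). Snhg18, the only gene called by edgeR that has a single annotated intron, had 21.2%, 21.9% and 17.2% in control and 6.84%, 9.35% and 7.64% in cKO libraries, but the snoRNA Snord123 lies within it. Cytl1, Pnisr, Vwa1, Slc30a9 and Lmcd1 were also among the 10 with separated groups and the smallest adjusted p. Annotated genes overlap Golga1, Kpna1, Vwa1 and Lmcd1 as well. Daam2 and Snhg18 kept the call in all 5 fits with a library left out, and none of the 10 passed over all 6 libraries.

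Within the gene lists, shares were higher in 3 of 93 splicing machinery genes, Sf3b2, Prpf4 and Cd2bp2, and lower in Luc7l, against 4.29% and 0.385% of all genes. Sf3b2 rose in both readouts, with 6.48%, 5.68% and 7.82% intron reads in control and 15.8%, 15.8% and 15.1% in cKO libraries (adjusted p = 0.00126 from edgeR, and called in all 5 fits with a library left out, but 0.0749 over all 6 libraries). Luc7l had 4.40% and 3.74% in controls 1 and 2 and 1.67% to 2.14% in cKO libraries, but control 3 (1.51%) was below all of these. Luc7l and Prpf4 passed in none of the 5 fits with a library left out and Cd2bp2 in 2, and no splicing machinery gene passed over all 6 libraries. Of 19 aminoacyl-tRNA synthetases 5 had a higher share, Gars, Lars, Mars, Nars and Qars, none of which passed in level. Mars had 8.99%, 7.69% and 2.20% in control and 19.1%, 19.5% and 23.2% in cKO libraries, whereas control 3 (14.9%) exceeded all cKO libraries in Qars. Mars, Lars and Gars were called in 4, 3 and 1 of the 5 fits with a library left out, Nars in 1 and Qars in none. The COPII genes Sar1a and Preb, the translocon genes Ssr3 and Srpr, the proteasome genes Psmb1 and Psmd2, Vps29, Tpm4, Fgfr3, Pdgfrb and the mRNA exporter Nxf1 were also called higher against controls 1 and 2. Control 3 overlapped the cKO libraries in Nxf1 (7.47% against 6.84% to 7.96%) and Srpr (9.23% against 8.49% to 10.3%) and exceeded them in Psmd2 (4.53% against 2.33% to 3.92%). Preb and Vps29 were called in all 5 fits with a library left out, Psmb1, Pdgfrb and Nxf1 in 1, and no gene of these lists passed over all 6 libraries. In Preb control 3 (14.3%) lay just under the cKO libraries (14.7% to 15.2%), against 3.81% and 5.10% in controls 1 and 2. The Snhg3 share was lower, with 25.6% to 43.0% against 5.92% to 13.9%. No Sm or SMN complex gene (15 tested), SR protein (11) or nonsense-mediated decay gene (14) was called.

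The calls of limma on the share that no edgeR call repeats were Ift43, of intraflagellar transport, with 23.5%, 24.3% and 35.7% in control and 60.4%, 68.9% and 68.3% in cKO libraries (adjusted p = 0.0489), and 5 poorly measured loci. Those were Casp1, in which controls 1 and 2 had no intron reads among 15 and 12 while control 3 had 30%, and Gm13832, Gm40466 (a pseudogene with a single annotated intron), 4930557K07Rik and AC161165.4. Only Casp1 (adjusted p = 0.168) and Gm13832 (0.344) were tested in edgeR. Whole exon and intron reads of the others, Ift43 included, were not recovered, so edgeR did not test them. Fam173a, which annotated genes overlap, passed in both (17.4%, 19.02% and 40.2% against 50.8%, 50% and 51.0%). Of the limma calls, AC161165.4 passed in all 5 fits with a library left out but has no control 3 value, Gm40466 passed in 1, and the others in none.

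What counts as an intron also shapes these shares. Of 6351 genes whose GENCODE annotation holds a transcript with a retained intron, the deposited exon length equalled the union of all transcripts, retained introns included, in 3739 (58.9%), and the union without those transcripts in 334. Reads in an annotated retained intron were then counted as exon reads. Postn is of this kind, with 8702 bp of exon, the union of its 9 transcripts, against 3290 bp without its 4 retained-intron transcripts. Among the 412 genes with a raised share 72.1% had such a transcript, against 61.6% of the genes compared.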

How the data were processed

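RNA of sorted PSCs was amplified with SMART-seq v4 and sequenced on Ion Torrent Proton. Reads were checked and trimmed by the authors with FastQC (0.1.1.8) and Trim Galore (0.6.4), and the submitters' processing notes also list kallisto (0.46.0) and GRCm38. Which aligner made the tables, and whether it used strand, is not stated in the sources used here. The authors deposited RPKM, exon reads scaled by exon length and by each library's mapped reads, and for each gene the ratio of intron reads to all its reads (a fraction). The separate table of control 3 also holds deposited counts of exon and intron reads. Control 3 was matched to that table by its name, and 0 columns of sample values stayed unmapped.

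Levels were tested with limma 3.58.1 in R 4.3.3 on log2(RPKM + 1), keeping those whose mean over 5 libraries reached 1 RPKM, so fold changes of low genes are understated. For the intron share limma was run on its log2 odds (offset 0.005), and for intron RPM (intron reads scaled to mapped reads) on log2(value + 0.5) with a mean of at least 1. Whole reads were recovered from RPKM steps (10301 of 11045 tested genes, 93.3%, tolerance 0.02 reads) and used in edgeR 4.0.16, for the share with library as a block and at least 10 exon and 10 intron reads per gene, and in DESeq2 1.42.0. All tests are two-sided with Benjamini-Hochberg adjustment at 0.05, and scripts were tested on simulated data. The edgeR fits of the share over 6 libraries, without each library, with TMM per read class and over genes free of overlap were chosen after seeing the data.

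Genes named for level are Prmt5, Postn, Ctsk, Ihh, the 12 largest rises and 12 largest falls that passed with a mean log2(RPKM + 1) of at least 4 and no overlap between 3 control and 3 cKO libraries, and up to 4 members of each list with the smallest p. For the share the rule took 10 per direction, and sequences were planned for called genes with a single intron and no overlapping gene, which only the pseudogene Gm40466 met; its splice sites are not shown, and Atp6v1g1 was chosen after its values were seen. Members, lists and markers were chosen with earlier results of these data known. Positions are from GENCODE M21 (52168 of 53715 genes matched). The libraries of a group come from separate mice by the study's legends, which was not checked here. The p-values measure the spread between libraries.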

Additional observations from a re-analysis of the deposited data

How the results depend on the processing

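Of 1118 genes called for level, the count was 248 with no filter on low values, 709 with median-ratio size factors and 207 over all 6 libraries, and 324 to 605 with a library left out. The intron share by limma (9 genes) gave 14 with an offset of 0.001, 2 with 0.02, 81 with no filter on RPKM, 0 with at least 20 reads per gene in every library, 449 with the edgeR interaction, 1 after centring the log odds on each library's median, 1 without a trend, 0 over all 6 libraries and 1 to 4 with a library left out. The edgeR interaction (449) gave 25 over all 6 libraries, 175 over genes that no other gene overlaps and 152 to 322 with a library left out. The intron signal (1395) gave 892 without a trend, 319 over all 6 libraries and 774 to 1103 with a library left out, and with size factors 652 were higher and 386 lower. The cause of these changes was not tested, except that filters and overlaps change the genes tested and left-out libraries the samples. Of 60 list members called for level, 30 passed with size factors, 15 over all 6 libraries and 16 in all 5 fits with a library left out. Libraries with the same replicate number did not deviate together (r = -0.02, -0.06 and -0.02). Control 3 of the separate table entered the control mean of this check, so it cannot exclude pairing. With the number as a replicate block over 6 libraries 1 gene passed for level, 0 for the share and 319 for the signal. Signs turned only in genes that did not pass. Prmt5 had -0.095 with size factors, -0.10 in edgeR, -0.11 in DESeq2 and -0.12 to 0.23 with a library left out, and its share -1.27 to 0.12 in log odds and -1.79 to 0.256 percentage points. With a library left out Ctsk had -0.20 to 0.048, Prmt3 -0.20 to 0.024 and Prmt9 -0.17 to 0.050. Over all 6 libraries, with and without the block, Ihh had -0.17, Scnm1 -0.0062, Snhg1 -0.043 and Tagln -0.28. Shares of genes with few reads are limited by depth: Prmt5 rests on 3 to 19 intron reads per library.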
